A study of Mus musculus with 2 samples.

Results

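The 10 genes described here are the classical cadherins of cortical neurons and their close relative Cdh13, namely Cdh2, Cdh4, Cdh6, Cdh8, Cdh9, Cdh10, Cdh11, Cdh12, Cdh13 and Cdh18. They were taken by name, 10 of the 55536 annotated genes of the tables, and each matched 1 gene. RNA came from the left cerebral cortex of female B6CASTF1/J mice, the first-generation hybrid of C57BL/6J and CAST/EiJ, at 4 days of age, and the spike-in mix named in the labels is one for stranded libraries with ribosomal RNA reduced. The series held 1 group of 2 libraries with no mutation, treatment or second tissue, so levels are described and no condition is compared. The labels number the animals separately but give both libraries 1 donor identifier, so the spread between them may be partly technical. The tissue is bulk cortex: no value here belongs to neurons alone, and fewer cells of a type and less RNA per cell cannot be told apart.

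Classical cadherins are calcium-dependent adhesion proteins that bind partners on the neighbouring cell through their outermost extracellular domain. Inside the cell their tails bind beta-catenin and p120-catenin, and alpha-catenin ties that complex to actin. They are made with a propeptide that furin-type enzymes remove. Type I cadherins, such as Cdh2 (N-cadherin) and Cdh4 (R-cadherin), dock 1 tryptophan of the mature protein into the partner, while type II cadherins dock a pair of them. In the cortex, members of both types mark different layers, areas and circuits and act in migration, layering and synapse formation. Cdh13 (T-cadherin) has no tail and is held in the membrane by a lipid anchor.

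The class of each member was visible in its coding sequence, which was not used to choose the genes. Given here are the last 4 codons of the propeptide and the first 16 codons of the mature protein of 6 type II members, 60 bases each, 5′ to 3′, from GENCODE M21 transcripts on GRCm38, because this stretch holds both the cleavage motif and the tryptophans that define the class. Capitals mark the tryptophan codons 2 and 4 of the mature protein.
Cdh6: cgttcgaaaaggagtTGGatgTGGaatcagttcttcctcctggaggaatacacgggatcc
Cdh8: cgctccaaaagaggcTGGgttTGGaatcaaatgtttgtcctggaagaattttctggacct
Cdh9: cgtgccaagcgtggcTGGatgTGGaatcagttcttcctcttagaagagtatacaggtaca
Cdh10: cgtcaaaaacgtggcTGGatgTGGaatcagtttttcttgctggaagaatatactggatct
Cdh12: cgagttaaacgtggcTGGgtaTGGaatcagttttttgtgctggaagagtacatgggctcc
Cdh18: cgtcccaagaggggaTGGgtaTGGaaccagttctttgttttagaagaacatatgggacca
The stretches lie at chr15:13091671-13091730 on the minus strand (Cdh6), chr8:99400747-99400806 on the minus strand (Cdh8), and on the plus strand at chr15:16778245-16778304 (Cdh9), chr15:18899739-18899798 (Cdh10), chr15:21237831-21237890 (Cdh12) and chr15:23173849-23173908 (Cdh18). All are coding exon. Of the 60 bases, 29 were the same in all 6 genes. Cdh10 was the most alike with each of Cdh6, Cdh9 and Cdh12, with 46 bases in common in each of the 3 pairs, and Cdh8 and Cdh9 were the least alike, with 39.

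The cleavage motif searched was an arginine codon, any codon, a lysine codon and an arginine codon, read in frame within the first 250 codons of the longest coding transcript of each gene. All 10 members held it, as did 1195 of all 21592 coding genes searched (5.53%). Followed by tryptophan at mature codon 2, the motif was found in 36 genes (0.167%), of which 9 were members: every member but Cdh13. With tryptophan at codons 2 and 4 it was found in 12 genes (0.0556%), the 7 type II members and 5 of the other classical cadherins, and in no gene outside the family. Cdh24, another type II cadherin, was not among the 12, so the search did not find the whole class. The histidine-alanine-valine triplet known from type I cadherins stood at mature codons 79 to 81 in Cdh2 and in Cdh4, and was found within the first 120 mature codons in no other member. Coding bases were 67.2% identical between Cdh2 and Cdh4, 60.5% (Cdh6 and Cdh8) to 71.1% (Cdh6 and Cdh10) over the 21 pairs of type II members, and 55.0% to 58.7% over the 14 pairs of type I with type II members. Cdh13 was nearer to the type I members (58.5% and 59.0%) than to any of the 7 type II members (53.4% to 55.1%).

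These sequences bear on whether reads can be told apart between members. The longest run of identical bases shared by coding transcripts of 2 members was 25 bases, between Cdh9 and Cdh10, and the median over the 45 pairs was 17 bases. The authors' posterior SD of the gene count, a measure of reads shared with other features, was 0 in both libraries for 9 members. For Cdh11 it was 1.02 counts in replicate 1 and 0.65 in replicate 2. Of 29 annotated genes that overlap 8 of the members, 3 shared exon bases with one. None of the 12 on the opposite strand reached 1 TPM. On the same strand 3 reached it in both libraries. They were Gm49685 over Cdh12 (4.25 and 5.72 TPM in replicates 1 and 2), and Gm45257 (1.35 and 1.87 TPM) and Gm45258 (3.28 and 4.95 TPM) over Cdh11. Only Gm49685 of these shared exon bases with the member, 198 of them. Whether counting used strand is not given in the sources used here.

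Depth was 29310533 expected counts over annotated genes in replicate 1 and 28844674 in replicate 2, where a count of 0 allows up to 0.102 and 0.104 ppm of the counts. The cortical excitatory markers (6 of 6) and the inhibitory markers (4 of 4) were detected, that is at 1 TPM (a level per length, scaled to the same total in each library) or more in both libraries. Their summed levels were 515 and 536 TPM for excitatory and 154 and 164 TPM for inhibitory markers in replicates 1 and 2. All markers of astrocytes and radial glia (767 and 721 TPM summed), oligodendrocyte precursors (101 and 109 TPM), endothelium (61.4 and 64.2 TPM), mural cells (48.9 and 51.1 TPM), microglia (27.9 and 32.5 TPM), meninges (252 and 264 TPM) and striatum (63.8 TPM in each) were also detected, as were 4 of 5 thalamic ones (37.9 and 41.0 TPM). Choroid plexus markers stood apart, at 215 TPM summed in replicate 1 and 4.53 TPM in replicate 2, with 1 of 5 detected in both and none at 0. In replicate 1 nearly all of that was Ttr, at 206 TPM, against 1.94 TPM of Ttr in replicate 2.

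All 10 members were detected. Their median was 30.7 TPM, against 17.1 TPM over the 13124 detected nuclear protein-coding genes (quartiles 6.75 and 38.8 TPM). The highest member was 10.8 times as abundant as the lowest, and together the 10 genes summed to 400 TPM in replicate 1 and 410 TPM in replicate 2.

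Cdh2, which joins neural progenitors at the ventricular surface and spans synapses in neurons, was the most abundant, with 113 TPM in replicate 1 and 110 TPM in replicate 2 (111.5 ± 2.34 TPM, SD, n = 2). It ranked 826 among the detected coding genes, in the top 6.29%. Its gene covers 220 kb of chromosome 18 (16588877 to 16809246, minus strand, GRCm38). Cdh4, the other type I member, stood well below it at 33.4 and 30.7 TPM (32.0 ± 1.92 TPM), and its gene lies on chromosome 2 (179442431 to 179899373, plus strand). Both libraries therefore gave Cdh2 over 3 times the level of Cdh4.

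Cdh13, known in the brain for effects on neurite growth and synapses, was the second most abundant, with 87.9 TPM in replicate 1 and 85.7 TPM in replicate 2 (86.8 ± 1.54 TPM). The gene spans 1041 kb of chromosome 8 (118283733 to 119324921, plus strand). Cdh2 and Cdh13 alone held 50.3% of the summed member level in replicate 1 and 47.7% in replicate 2.

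Among the type II members, Cdh8 and Cdh11 were the most abundant. Cdh8, which marks particular cortical areas, layers and thalamocortical circuits, had 44.5 and 47.7 TPM (46.1 ± 2.24 TPM) from chromosome 8 (99024471 to 99416471, minus strand). Cdh11, expressed by neurons and also by mesenchymal cells, had 40.9 and 44.5 TPM (42.7 ± 2.57 TPM) from chromosome 8 (102632095 to 102785642, minus strand). The 2 genes overlapped within their spread when all their transcripts were counted. Protein-coding transcripts alone gave Cdh11 27.6 and 29.7 TPM in replicates 1 and 2, below Cdh8 at 44.05 and 46.1 TPM.

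The other 5 type II members lay on chromosome 15 and were lower. Cdh10 had 27.3 TPM in replicate 1 and 31.4 TPM in replicate 2 (29.3 ± 2.92 TPM), which overlapped with Cdh4. Cdh6, which marks subsets of neurons and cortical regions, had 17.8 and 20.7 TPM (19.2 ± 2.05 TPM), and Cdh12 had 14.8 and 17.6 TPM (16.2 ± 1.97 TPM). Cdh18 had 10.1 and 11.0 TPM (10.5 ± 0.636 TPM). Cdh9, known from synapses between dentate granule cells and CA3 neurons of the hippocampus, had 9.95 and 10.7 TPM (10.3 ± 0.545 TPM), so the lowest pair could not be ordered. Cdh12, Cdh18 and Cdh9 lay below the median of detected coding genes by their mean, and none was near the limit of detection.

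Of the 9 pairs of neighbours in this order, 6 were apart, meaning that both values of one lay above both values of the other, and 42 of all 45 pairs were apart. The 3 that overlapped were Cdh8 with Cdh11, Cdh4 with Cdh10, whose order differed between the libraries, and Cdh18 with Cdh9. This order counts all transcripts of a gene. By protein-coding transcripts alone Cdh11 (27.6 and 29.7 TPM) was not above Cdh4 (32.15 and 29.7 TPM). Read counts alone would give another order, since transcripts differ in length: Cdh6 had 2633 and 2852 counts and Cdh8 had 2857 and 2910, although the level of Cdh8 per length was more than 2 times that of Cdh6 in both libraries.

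**Figure D1:**
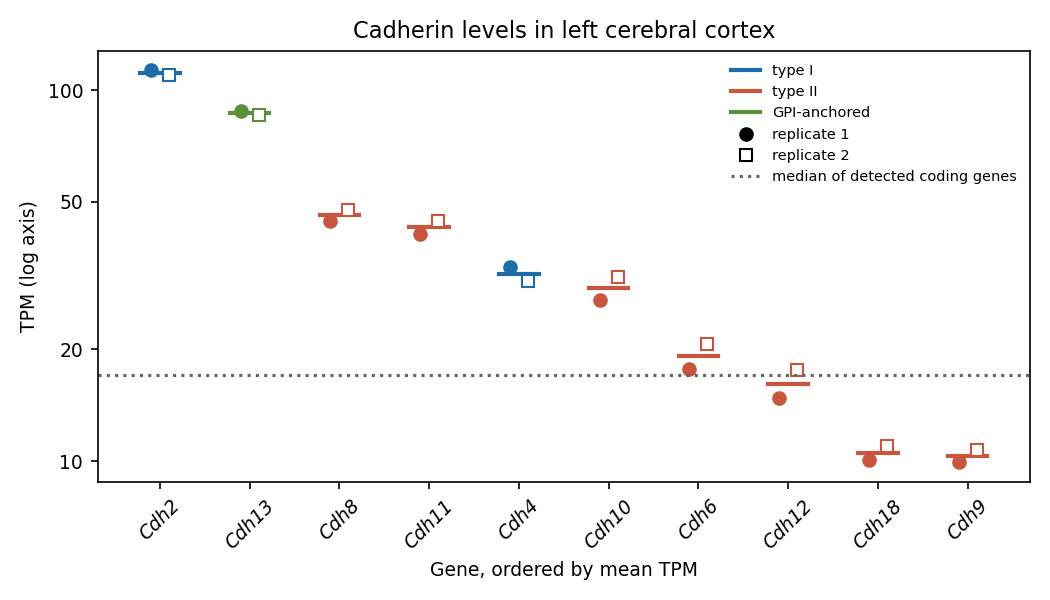
TPM of each cadherin gene in replicate 1 (filled circles) and replicate 2 (open squares) of left cerebral cortex, on a log axis, with bars for the mean and the dotted line for the median of detected coding genes (17.1 TPM). Cdh2 and Cdh13 sit above all others, and Cdh18 and Cdh9 lie together at the bottom near 10.5 and 10.3 TPM.

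Summed by class over all transcripts, the 7 type II members were slightly more abundant than the 2 type I members. Type I summed to 147 TPM in replicate 1 and 140.5 TPM in replicate 2, and type II to 165 and 184 TPM. The log2 ratio of type I over type II was -0.17 and -0.39 in replicates 1 and 2 (mean -0.28, SD 0.15). Type I members held 35.5 ± 1.68%, type II members 43.1 ± 2.44% and Cdh13 21.5 ± 0.759% of the summed level (SD, n = 2). These sums include noncoding transcripts. Retained-intron transcripts of Cdh11 gave 13.3 and 14.8 TPM of the type II sum, and that of Cdh2 gave 3.31 and 6.58 TPM of the type I sum. The balance over protein-coding transcripts alone was not computed, so the small difference is not read as one between coding forms.

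The second table of the deposit, made by another quantifier directly from the reads, gave each member 1.33 (Cdh6) to 1.87 (Cdh13) times the TPM of the first. Coding genes held 50.7% and 51.5% of the TPM of annotated genes in the first table and 82.4% and 82.0% in the second, in replicates 1 and 2. Scaled to coding genes alone, the members' second values were 0.27 below (Cdh6) to 0.22 above (Cdh13) the first on the log2 scale. By mean, the second table placed Cdh13 above Cdh2 (163 ± 11.95 and 158 ± 5.32 TPM) and Cdh11 above Cdh8 (68.2 ± 2.54 and 64.0 ± 2.10 TPM). It kept the order of the other 6. Cdh13 had 154.1 and 171 TPM there and Cdh2 161.5 and 154 TPM in replicates 1 and 2, so their order differed between the libraries. Protein-coding transcripts alone put Cdh2 (156.8 and 145 TPM) above Cdh13 (104.7 and 100.5 TPM) there. They also put Cdh8 (61.95 and 63.3 TPM) above Cdh11 (39.9 and 42.2 TPM).

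Between the libraries the members differed little. The libraries were compared gene by gene with a two-sided exact binomial test, conditional on the summed count, over 18492 genes with Benjamini-Hochberg adjustment. A call needed an adjusted p below 0.05 together with a log2 ratio of 1 or more in size. Of the 10 members 0 were called, against 2.88% of all genes tested. Without the minimum ratio 3 of 10 passed, against 25.1% of all genes, and 5 of 10 passed at an unadjusted p under 0.05, against 34.6% of all genes. Only counting error enters this test, and what it compares is the pair of libraries. The members' median ratio was 0.07 in size on the log2 scale, against 0.10 over the 8356 genes with at least as many reads as the lowest member (971 in sum).

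With TMM scaling, the 3 that passed without the minimum ratio were all higher in replicate 1. Cdh4 had 3674 and 3227 counts in replicates 1 and 2, a log2 ratio of 0.21 (95% interval 0.14 to 0.28, exact binomial adjusted p = 5.53e-08). Cdh2 had 9238 and 8452 counts, a log2 ratio of 0.15 (0.11 to 0.19, exact binomial adjusted p = 2.07e-10). Cdh13 had 5691 and 5479 counts, a log2 ratio of 0.08 (0.02 to 0.13, exact binomial adjusted p = 0.0245). These are the type I members and Cdh13. Which members passed depended on the scaling: with DESeq2 size factors 4 did, Cdh2 and Cdh4 higher in replicate 1 and Cdh6 and Cdh10 lower there, and with total counts 5 did, those 4 and Cdh11, lower in replicate 1. Cdh13 did not pass under either (exact binomial adjusted p = 0.124 and 0.457). The 7 type II members had ratios between -0.11 (Cdh10) and -0.005 (Cdh8 and Cdh18), none past the adjusted threshold with TMM scaling (lowest exact binomial adjusted p = 0.0628, Cdh6), and in the second table Cdh8, Cdh9 and Cdh18 lay above 0 instead. Choroid plexus markers, the list that differed most between the libraries, were also higher in replicate 1, and summed markers of astrocytes and radial glia were higher there by 0.09 on the log2 scale; their part in these ratios was not tested.

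**Figure D2:**
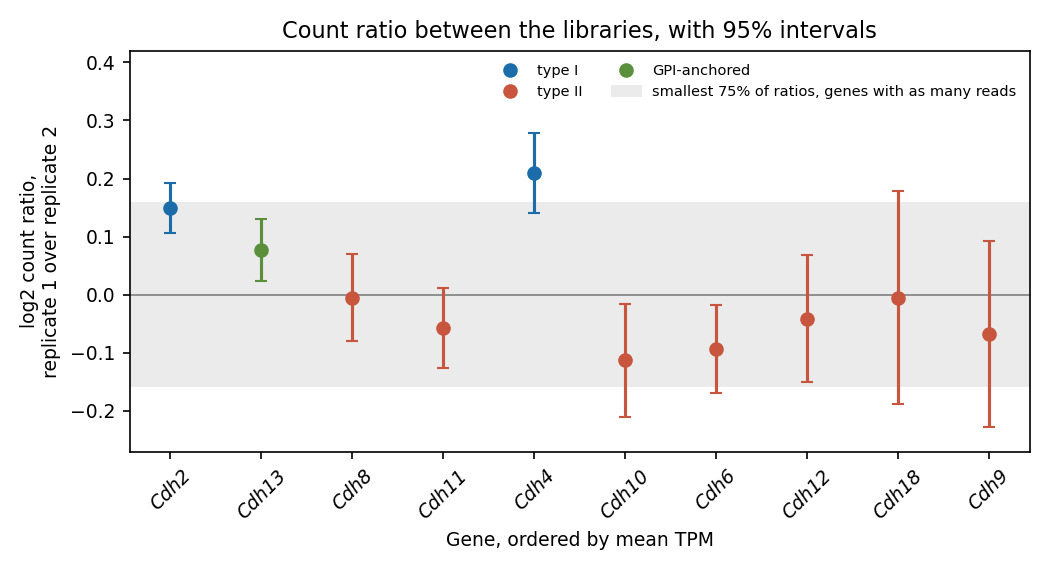
log2 ratio of scaled counts, replicate 1 over replicate 2, for each cadherin gene with its exact 95% interval for counting error, and in grey the range that holds the smaller 75% of ratios of genes with at least 971 reads in sum (0.16 in size). Cdh2, Cdh4 and Cdh13 lie above 0 and the type II members at or below it, but Cdh8, Cdh9 and Cdh18 lay above 0 in the second table.

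Transcripts were the next level of detail. The 10 genes have 47 annotated transcripts, 24 of them protein-coding, and a member's leading transcript, the one with its highest TPM, was the same in both libraries and both tables for 9 of 10. Most were led by 1 coding form in the first table. Cdh6-201 held 93.2% and 90.6% of the TPM of its gene in replicates 1 and 2, Cdh4-201 88.5% and 88.8%, and Cdh13-201 85.9% and 88.0%. Cdh18-203 held 82.7% and 78.1%, beside the short Cdh18-202 of 337 codons at 13.7% and 14.1%; the second table gave Cdh18-203 64.2% and 62.9%, and Cdh18-202 30.2% and 31.6%. Cdh12-203 held 77.1% and 70.7%; the remainder of Cdh12 was a noncoding transcript of 404 bases with 20 and 29 counts, whose short length made it 22.9% and 29.3% of the TPM. Cdh11-201, the only coding form of Cdh11, held 67.5% and 66.8% of the TPM and 89.8% and 87.2% of the counts. Most of the remainder in TPM was Cdh11-203, a retained-intron transcript of 599 bases with 106 and 103 counts (26.7% and 24.98% of the TPM).

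Cdh8 was the member with the most even mixture, and its forms differ in the end of the protein. Cdh8-204 (711 codons) held 40.7% and 38.0% of the gene's TPM in replicates 1 and 2, Cdh8-203 (799 codons, the longest) 24.6% and 24.9%, Cdh8-207 (754 codons) 18.3% and 15.2%, and Cdh8-201 (716 codons) 14.8% and 17.4%. By counts Cdh8-203 was above Cdh8-204 in both libraries, at 954 and 986 against 918 and 874. The second table gave 1117 and 1178 counts against 1027 and 947. Cdh8-204 is the shorter transcript, with 2711 bases against 4594, so it leads by TPM and not by counts. By TPM the second table kept Cdh8-204 as the leader, at 45.1% and 40.5%. All 4 forms share the stretch up to codon 696, which includes the most hydrophobic window of the later part of the protein (codons 624 to 642), as in a membrane-spanning segment. The part that differs is therefore in the tail, in which classical cadherins bind catenins.

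The bases around the points where the forms part are shown because they set which tail is made. The lines give 60 coding bases each, 5′ to 3′, from GENCODE M21 on GRCm38 (chromosome 8, minus strand), with the bases before the point in lower case and those after it in capitals.
Cdh8-203: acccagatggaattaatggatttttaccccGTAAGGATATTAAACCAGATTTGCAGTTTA
Cdh8-204: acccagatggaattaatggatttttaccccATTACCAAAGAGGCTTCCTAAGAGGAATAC
Cdh8-201: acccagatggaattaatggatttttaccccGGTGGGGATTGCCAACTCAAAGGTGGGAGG
Cdh8-207: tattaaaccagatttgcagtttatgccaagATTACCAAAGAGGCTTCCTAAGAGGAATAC
Cdh8-203 reads on through chr8:99030846-99030905 without a junction, and its capitals begin with the GT of a splice donor. Cdh8-204 and Cdh8-201 leave there, after codon 696, for different exons (chr8:99024928-99030905 and chr8:99029882-99030905 as outer bounds), and end with 15 and 20 codons of their own. Cdh8-207 reads on further and leaves after codon 708 for the exon that Cdh8-204 uses (chr8:99024928-99030868), in another reading frame, with 46 codons of its own.

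In Cdh2 the competing coding forms differ at the start of the protein, and in Cdh9 and Cdh10 the main ones encode the same protein. Cdh2-201 (906 codons) held 50.3% and 47.4% of the TPM of Cdh2 in replicates 1 and 2, and Cdh2-202 (849 codons, with another first exon) 46.8% and 46.6%; the second table gave Cdh2-201 60.9% and 58.2%. Cdh9-202 and Cdh9-201 encode the same 788 codons. The minor form Cdh9-201 had 159 counts in replicate 1 and 60.5 in replicate 2, or 29.5% and 10.9% of the TPM, a log2 count ratio of 1.45 (95% interval 1.02 to 1.91, exact binomial adjusted p = 2.42e-11), while the gene as a whole did not pass. The second table had the same direction, at 34.2% and 19.3%. Neither the interval nor the test covers the error of splitting reads between these 2 forms. Of all transcripts tested between the libraries, 14.9% were called.

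Cdh10 was the exception among leading transcripts. The first table gave Cdh10-202 82.6% and 69.7% of the gene's TPM in replicates 1 and 2, and the second gave Cdh10-201 64.8% and 61.5%, with 9.30% and 0.00535% for Cdh10-202. The 2 forms encode the same 788 codons and differ in the bases before the coding start (255 and 486), so the encoded protein was the same in both tables. A form marked for nonsense-mediated decay, Cdh10-203, held 18.8% and 23.1% in the second table and was listed at 0 in the first. Likewise a noncoding Cdh13 transcript of 580 bases, Cdh13-208, held 21.3% and 23.1% in the second table and was listed at 0 in the first, and there the coding Cdh13-201 held 67.9% and 58.8%.

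**Figure D3:**
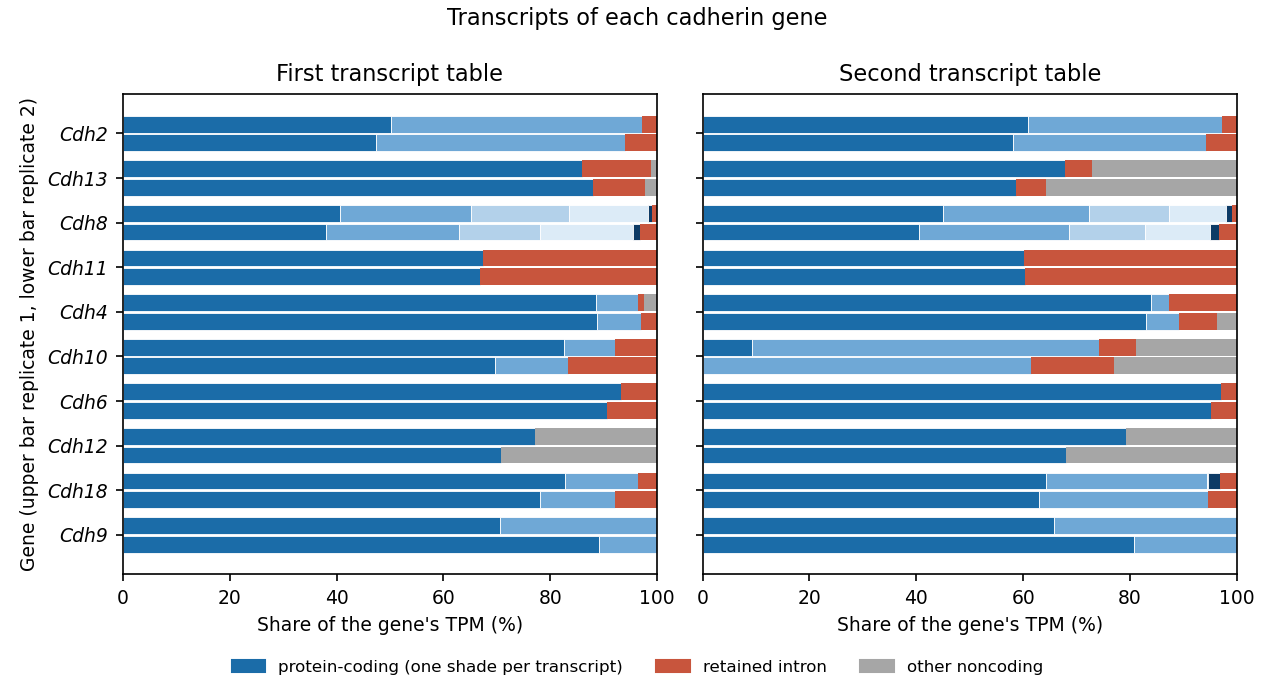
Share of each gene's TPM held by its transcripts in the first table (left) and the second table (right), with replicate 1 above replicate 2 for each gene; blue shades are single protein-coding transcripts, red is retained-intron transcripts and grey is other noncoding ones. Cdh8 is a mixture of 4 main coding forms, and Cdh10 and Cdh13 are where the tables differ most.

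Of the members' 34 transcripts tested between the libraries, 5 were called (14.7%), against 14.9% of all 54376 transcripts tested. Among retained-intron transcripts, which keep part of an intron and encode no protein, 13 of 15 could be tested and 10 had ratios below 0, that is fewer scaled counts in replicate 1. Those 10 were 76.9% of the members' tested ones, against 68.2% over all genes, so most such transcripts leaned the same way. Calls lower in replicate 1 numbered 3 of 13, against 8.34% of the 13193 such transcripts of all genes, too few to read a difference from. Cdh10-206 had 59.7 counts in replicate 1 and 139 in replicate 2, a log2 ratio of -1.13 (95% interval -1.6 to -0.69), Cdh10-204 had 15.2 and 49.9 counts (-1.63, -2.60 to -0.81), and Cdh8-202 had 11.1 and 37.1 counts (-1.63, -2.80 to -0.68). Cdh13-203 went the other way, with 82.3 and 17.9 counts (2.23, 1.51 to 3.09). These intervals do not cover the error of splitting reads between transcripts.

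Summed over the members, retained-intron transcripts held 993 counts in replicate 1 and 1529 in replicate 2, or 3.15% and 4.97% of the members' counts. Over all protein-coding genes the shares were 4.23% and 5.14%. The median log2 ratio was -0.61 over the members' 13. Over the 13193 retained-intron transcripts tested of all genes it was -0.25, so the direction was the same. Cdh2-203 had 209 and 396 counts and Cdh11-202 had 232 and 343 counts. Among annotated genes that overlap members on the same strand, all 7 with at least 20 counts in sum had fewer scaled counts in replicate 1. Some of these counts were small, such as 7 and 15 for Gm49182 in replicates 1 and 2. The share over all genes of like count was not computed, so nothing particular to the members is read from these 7. This comparison was added after the values were seen.

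The 5 chromosome 15 members lie in 1 stretch from 13028701 to 23474418 on GRCm38, 10.5 Mb long, in the order Cdh6, Cdh9, Cdh10, Cdh12 and Cdh18. Cdh6 is on the minus strand and the others on the plus strand. The stretch holds 70 annotated genes, of which 6 are protein-coding, and 5 of those 6 are these cadherins. Of the 65 other genes 1 was detected, Gm49685, with 4.25 and 5.72 TPM in replicates 1 and 2. Gm49685 overlaps Cdh12 on the same strand and shares 198 exon bases with it. The cadherins held 90.1% and 91.6% of the TPM of the stretch, 79.8 TPM in replicate 1 and 91.3 TPM in replicate 2, of which Cdh10 was the largest part.

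**Figure D4:**
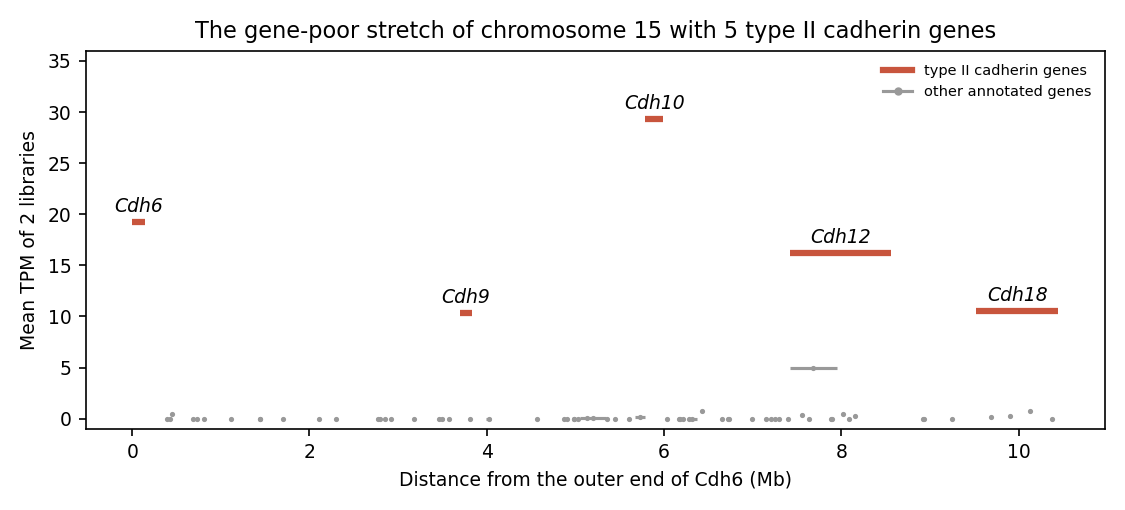
Mean TPM of every annotated gene in the chromosome 15 stretch against its distance from the outer end of Cdh6 in Mb, with cadherin genes in red and all others in grey. The 5 cadherin genes stand between 10.3 (Cdh9) and 29.3 TPM (Cdh10), and the 65 others lie near 0 apart from Gm49685, which overlaps Cdh12.

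The genes through which these cadherins act were read from lists of the other classical cadherins, the catenins, adhesion and actin partners, and processing enzymes. Of the 33 genes 29 were detected, and 0 of the 32 tested were called between the libraries by the same exact binomial test. Without the minimum ratio 12 of the 32 passed at an adjusted p below 0.05, against 25.1% of all genes, and 12 at an unadjusted p, against 34.6%, with ratios of at most 0.66 in size on the log2 scale (Cdh1).

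The other classical cadherins were lower as a list, with 6 of 9 detected and a median of 6.56 ± 0.629 TPM. Cdh5, the cadherin of endothelial cells, led with 11.0 and 10.8 TPM in replicates 1 and 2. Cdh24 had 9.34 and 10.3 TPM, Cdh20 8.09 and 8.54 TPM, Cdh7 7.32 and 9.04 TPM, and Cdh22 averaged 6.56 ± 0.629 TPM. Cdh5 overlapped in level with Cdh18, and Cdh24 with Cdh18 and Cdh9, the lowest members, while the other 7 genes of the list lay below all 10 members in both libraries. The epithelial Cdh1 had 1.23 and 2.06 TPM, Cdh15, known from muscle, 1.14 and 0.86 TPM, Cdh3, the P-cadherin, 0.37 and 0.23 TPM, and Cdh19 0.05 and 0.11 TPM.

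Catenins were detected in 8 of 9 cases, with a median of 38.3 ± 2.21 TPM. Ctnnb1, or beta-catenin, which binds the cadherin tail and also carries Wnt signals, reached 365 TPM in each library. All 10 members together had 400 and 410 TPM, of which Cdh13, which has no tail, held 87.9 and 85.7 TPM. The related Jup had 33.6 and 36.9 TPM. Of the alpha-catenins, the neural Ctnna2 had 86.4 and 88.3 TPM, the broadly expressed Ctnna1 18.3 and 20.9 TPM, and Ctnna3 0.38 and 0.33 TPM. In the p120 family, the neural Ctnnd2 was highest at 136 and 141 TPM, followed by Pkp4 at 70.9 and 81.9 TPM, Arvcf at 33.2 and 39.9 TPM and Ctnnd1, p120-catenin itself, at 36.8 and 35.0 TPM. The neural forms of alpha-catenin and of the p120 family were thus above the widely expressed ones in both libraries.

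All 8 adhesion and actin partners were detected, with a median of 35.1 ± 1.08 TPM. Fyn, a Src-family kinase, had 107 and 105 TPM, and Afdn (afadin), which links nectins to actin, 82.4 and 90.4 TPM. The nectins, which form junctions beside cadherins, had 48.4 and 47.6 TPM (Nectin1) and 37.9 and 38.6 TPM (Nectin3). The phosphatase Ptpn1 had 30.8 and 33.2 TPM and the kinase Fer 20.4 and 21.5 TPM. Iqgap1, a scaffold of actin and small GTPases, had 13.7 and 20.3 TPM, and Vcl, or vinculin, 9.76 and 10.4 TPM.

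All 7 processing enzymes were detected, with a median of 39.9 ± 0.332 TPM. Furin, of the family that removes cadherin propeptides, had 21.2 and 20.6 TPM. Adam10, which sheds the outer part of Cdh2, had 43.3 and 47.0 TPM. Among the parts of gamma-secretase, which cuts what remains in the membrane, Aph1a had 50.3 and 50.2 TPM, Ncstn 41.0 and 39.7 TPM, Psenen 40.2 and 40.4 TPM, and Psen2 8.47 and 10.5 TPM.

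**Figure D5:**
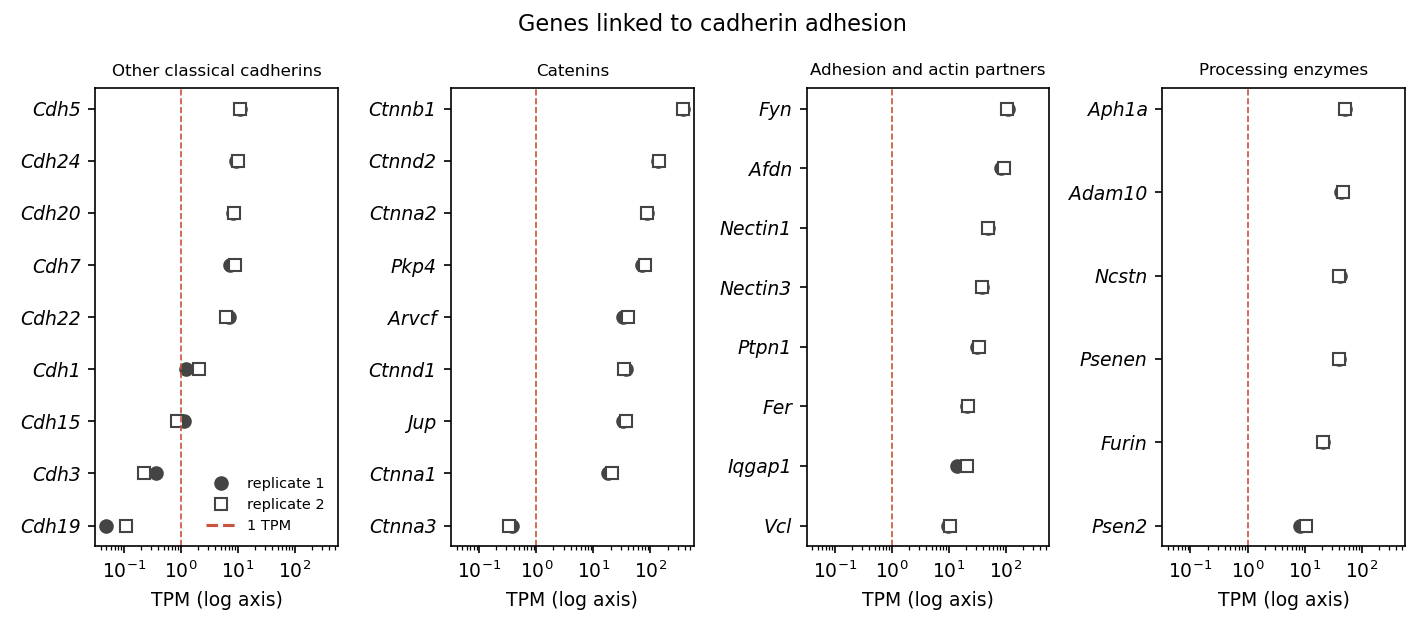
TPM on a log axis of the other classical cadherins, catenins, adhesion and actin partners and 6 of the 7 processing enzymes in replicate 1 (filled circles) and replicate 2 (open squares), with the dashed line at 1 TPM, the limit of detection. Ctnnb1 is highest at 365 TPM, and Cdh3, Cdh15, Cdh19 and Ctnna3 are the 4 genes not at 1 TPM in both libraries.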

How the data were processed

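Total RNA was measured in 2 libraries of 1 group, each with 3 tables. Per the file headers, the authors' gene table and first transcript table give expected counts, in which shared reads are split, posterior mean counts, a posterior standard deviation score and TPM; per the file descriptions they came from reads aligned to the transcriptome. The deposited percent values are each transcript's share of its gene's TPM. The second transcript table, made directly from the reads, gives estimated counts and TPM, as deposited. TPM here is scaled by effective length. Assembly mm10 and annotation GENCODE M21 are named per the file descriptions; which quantifiers were run is not given in the sources used here. CAST/EiJ variants were not modelled.

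Genes were detected at 1 TPM or more in both libraries; no pseudocount entered levels. Levels are mean ± SD (n = 2). Expected counts were rounded, and genes summing to 20 counts or more were compared with a two-sided exact binomial test, conditional on the summed count, with library sizes scaled by TMM (edgeR 4.0.16, R 4.3.3; DESeq2 1.42.0 size factors as an alternative), Benjamini-Hochberg adjustment over all genes, 0.5 added to counts for log2 ratios, and exact 95% Clopper-Pearson intervals, which cover counting error only. The test was also run on simulated counts that held counting error only. That run cannot show how the test behaves with other spread between libraries. Transcripts were tested likewise. Python 3.11.15, scipy 1.17.1, Biopython 1.88 and matplotlib 3.10.9 were used. Coding sequence came from GENCODE M21. Text names all members, all linked genes but 1, which is counted in its list and not reported here, and each member's leading transcripts, any at 10% or more, and transcripts called. Members and lists were chosen with earlier results of these data known, and retained-intron comparisons were added after values were seen. Alternatives are given in the closing section. Marker lists and spike-ins entered no test of their own, and spike-ins stayed out of library sizes.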

Additional observations from a re-analysis of the deposited data

How the results depend on the processing

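All 10 members were detected under every table, scaling, threshold (0.5 or 2 TPM, or any count) and with either replicate left out, and linked genes detected numbered 28 to 33 against 29. Neighbours apart numbered 7 in the second table, 8 with posterior mean TPM and 7 after rescaling over coding genes, against 6; within single libraries 8 and 9 of the 9 neighbours kept the order. The log2 ratio of type I over type II ran from -0.39 to -0.17 with 1 replicate left out and was -0.30 in the second table. Genes called between the libraries numbered 533, with 495 to 690 under other scalings, tables and no count filter, 188 at a summed count of at least 100, where fewer genes were tested, and 4649 with adjusted p alone. Members called numbered 0, and 3 with adjusted p alone (Cdh2, Cdh4 and Cdh13). With adjusted p alone the passing members changed with the scaling. Under DESeq2 size factors 4 passed, without Cdh13 (adjusted p = 0.124) and with Cdh6 (0.0195) and Cdh10 (0.0322), both lower in replicate 1. Under total counts 5 passed, again without Cdh13 (0.457) and with Cdh6 (0.00315), Cdh10 (0.00844) and Cdh11 (0.0203). These scalings moved the median ratio of all genes by -0.020 and -0.045 (log2). The other 4 alternatives kept the first 3. The log2 ratios of Cdh8, Cdh18 and Cdh9 were 0.043, 0.039 and 0.051 in the second table, opposite in sign to the first, with exact binomial adjusted p = 0.429, 0.812 and 0.685; the cause was not tested. Other tables, estimates or scalings moved member levels by more than 1 SD in 21 of 30 values and leading transcript shares in 16 of 20; leaving out 1 of 2 replicates cannot do so. Retained-intron transcripts of members called lower in replicate 1 numbered 3 in both tables and 1 at a summed count of at least 100. No paired analysis was possible because the series holds 1 group. With 1 library on each side, leaving out a replicate gives no library comparison. Depth was ample for levels of members, while transcripts under about 100 counts have wide intervals.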
